A study of Mus musculus with 16 samples.

Results

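Narrow, isolated sites of RNA polymerase II (Pol2) were described in lipopolysaccharide (LPS)-activated mouse B cells: 500 bp stretches with a moderate number of Pol2 reads and almost none for 5 kb to either side. The mm8 genome was divided into 4924887 bins of 500 bp on chromosomes 1 to 19, and each read was placed by its midpoint. Bins were chosen by measured values: 8 to 19 reads in the Pol2 library of B4 cells, a Pol2 level at least 4 times the pooled B4 IgG level plus 0.1 RPM (reads per 1000000 on chromosomes 1 to 19), and at most 2 Pol2 reads in each of the bins 2 to 10 away on both sides. Of 22971 bins with 8 to 19 reads, 21419 passed the limit over IgG, and 2014 of these (9.40%) were isolated. The other 19405 are called crowded bins here, and 9640 bins with 20 or more reads past the same limit are called strong bins. Because the 3 criteria used B4 Pol2 and B4 IgG, values in those libraries describe the choice and are not findings.

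RNA polymerase II transcribes protein-coding genes. It is known to accumulate at promoters before elongation, and it is also found at enhancers, where short and mostly unstable transcripts are made. Myc pairs with Max to bind DNA, most often at promoters in open chromatin, and in lymphocytes it is induced within hours of activation. 10058-F4 is a synthetic inhibitor that keeps Myc and Max from forming this dimer.

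Chromatin from splenic lymphocytes in culture was precipitated and sequenced (ChIP-seq) in 16 libraries. Pol2 (antibody ab5408) was measured in 1 library of B cells given LPS and 10058-F4 for 4 h and in 1 library of B4 cells, which had 25 µg/ml LPS for 4 h. Myc was precipitated with an anti-EGFP antibody in 1 library of B4 cells with 10058-F4, 2 of B4 cells, 1 of untreated quiescent B cells (B0) and 1 each of T cells given 7.5 µg/ml concanavalin A for 4 h (T4) or 14 h (T14). Control IgG was sequenced in 2 libraries of B4 with 10058-F4, 3 of B4 and 1 each of B0, T4 and T14. The dose of 10058-F4, the strain and the genotype are not given in the sources used here. The antibody labels imply an EGFP tag on Myc, but the labels do not say which cells carry it, whether it is a knock-in or a transgene, or whether libraries came from separate animals. The titles of B4 Pol2 and of B4 IgG replicate 2 carry the mark wt, and replicates 1 and 3 of B4 IgG do not, so the rule may combine cells of different genotype. The labelled cell types were not checked against marker genes, since no gene annotation of mm8 was used. For the same reason no gene is assigned to a bin and no sequence is printed.

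Depth on chromosomes 1 to 19 was 2261410 to 7433203 reads in the ChIP libraries and 1278471 to 5119994 reads in the IgG libraries. Reads were 24 to 30 bases long in replicate 1 of B4 Myc and of B4 IgG, 25 in the T cell libraries and 45 elsewhere. For T14, the titles and the deposited file names give opposite antibodies, so the libraries are called labelled T14 Myc and labelled T14 IgG and were left out of the fits. All intervals below are exact 95% intervals. Those on read levels and their ratios cover counting error only. Those on shares of bins and on the median distance treat bins as independent, though adjacent bins can be pieces of 1 site. They describe these libraries and do not cover spread between libraries.

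The isolated sites were small. Their median was 12 Pol2 reads in B4 (interquartile range 9 to 15), and 337 of the 2014 held exactly 8, the lower limit. Just outside that limit, 449 bins with 7 reads met the other criteria, and 64 bins with 20 reads did so above the upper limit. The neighbour limit decided more: 1622 members had a largest neighbour of exactly 2 reads, 12 had no neighbour read, and 2058 further bins had a largest neighbour of 3. Pooled B4 IgG held a median of 5 reads at the members and at most 17. The bins directly beside a member were not restricted. Of the members, 1124 stood alone, with under 8 reads in both adjacent bins, 227 lay beside a bin of 20 or more reads, and 501 had an adjacent bin with more reads than their own. Adjacent members merged into 1806 runs, with 416 members in runs of 2, so adjacent bins can be pieces of 1 site.

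The reads were laid out on both strands. Each centre was the median position of the B4 Pol2 reads. Around it, minus-strand reads lay on average 97.0 bp after plus-strand reads in Pol2 with 10058-F4, a library that did not choose the bins. In B4 Pol2 they lay 103 bp after them. The same offset was 73.6 bp in Myc with 10058-F4, 49.3 and 80.9 bp in the 2 B4 Myc libraries and 59.2 bp in B0 Myc. IgG offsets ran from 15.9 bp (T4) to 59.3 bp (B0). An offset of this sign was present in all 16 libraries. Within 500 bp of the centre, 64.9% of the Pol2 reads above the outer level lay within 200 bp in the 10058-F4 library. In 29 of the 2014 members, 90% or more of the B4 Pol2 reads lay on 1 strand.

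**Figure D1:**
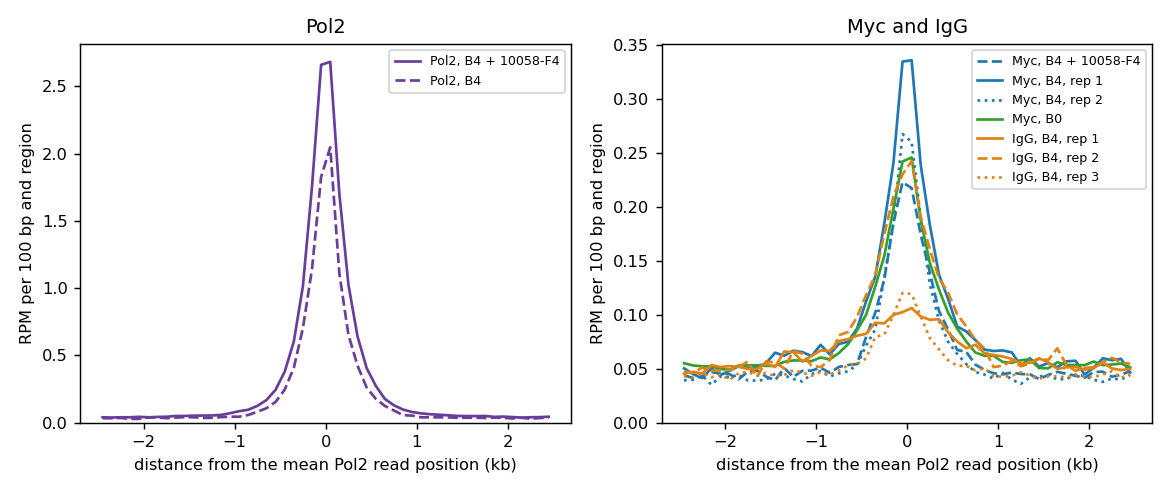
RPM per 100 bp and region (vertical axes) by distance in kb from the median B4 Pol2 read position (horizontal axes, labelled as the mean). Values are averaged over the 1806 runs of isolated bins, and lines are libraries. Pol2 with 10058-F4 peaks at 2.68 and B4 Pol2 at 2.05 RPM per 100 bp. In the right panel B4 Myc replicate 1 peaks at 0.336, while B4 IgG replicate 2 (0.242) lies above Myc with 10058-F4 (0.223) and far above the other B4 IgG libraries (0.106 and 0.1202).

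Pol2 was present at most of these sites in the second Pol2 library. With 10058-F4 the members averaged 7.43 RPM of Pol2 (7.38 to 7.48), or 32.2 times (31.8 to 32.6) the level of their own flanks, the bins 2 to 10 away. In B4, which defined them, the level was 5.12 RPM, or 28.5 times the flanks. IgG libraries of the same cells with 10058-F4 were at 0.714 and 0.570 RPM, or 2.89 and 2.44 times their flanks. Pol2 over this IgG was 12.1-fold (11.9 to 12.4) at the isolated bins, against 12.05-fold (11.96 to 12.14) at the crowded and 19.3-fold (19.1 to 19.5) at the strong bins. Isolated and crowded bins of this size therefore had similar Pol2 over IgG in that library.

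The 10058-F4 library was thinned to 2378101 reads to match the 2377368 of B4. At that depth 1591 of the 2014 members (79.0%, 77.15 to 80.76) held 8 or more reads and 4 times the IgG level of the same cells plus 0.1 RPM. Over all bins of the genome the share was 0.841%, and it was 71.0% (70.4 to 71.6) of the crowded and 98.3% (98.0 to 98.5) of the strong bins. The share followed the size of the site: it was 57.2% at members with 8 to 9 B4 Pol2 reads, 79.7% at 10 to 12, 91.5% at 13 to 15 and 95.8% at 16 to 19. Isolation was less stable than presence. In the thinned library 1069 members (53.1%) kept at most 2 reads in every bin 2 to 10 away, 722 (35.8%) exceeded 19 reads and 364 (18.1%) held under 8. The full rule applied to that library gave 2758 bins, and 657 members (32.6%) had 1 of these within 1 bin.

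In limma with voom weights over the 142141 bins with 26 or more reads summed over 13 libraries, Pol2 with 10058-F4 was above IgG at an adjusted p below 0.05 (Benjamini-Hochberg) in 36049 bins (25.4%). Of the 2014 members, 1925 entered the test, 1353 of these were called higher (70.3%) and 0 lower. The filter sums Pol2 reads too, so members could pass it through Pol2 alone, and the counts are a description. With the minimum at 13 reads, 534 of 2004 members tested were called higher, against 14802 of 1404682 bins. In the main fit the median log2 fold change was 3.48 over the members tested and 1.49 over all bins tested. It was 3.53 and 1.57 without IgG replicate 1 with 10058-F4, and 3.16 and 1.22 without its replicate 2. Each of these 2 fits keeps 1 control library of that state. With 1 Pol2 library, the fit assumes that it varies like the replicated groups. Scaling by background bins in place of total reads raised the median of all bins to 2.35 and that of the members to 4.34.

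The Pol2 level itself was higher with 10058-F4 than in B4 at 1377 of the 2014 members (68.4%). The ratio of RPM was 1.45 (1.43 to 1.47) over the sum of the isolated bins, 1.31 (1.30 to 1.31) over the crowded and 1.29 (1.28 to 1.29) over the strong bins. Per member the median ratio was 1.32, with an interquartile range of 0.891 to 1.85 and a range of 0 to 5.997. Scaled by the reads in bins with few reads in both libraries, the 3 ratios were 1.90, 1.71 and 1.68. These ratios carry the choice of B4 Pol2 between 8 and 19 reads, compare 1 library with 1 library, and were not tested. The ratio also changed with size, at 1.28 for members of 8 to 9 B4 reads and 1.54 for those of 16 to 19.

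**Figure D2:**
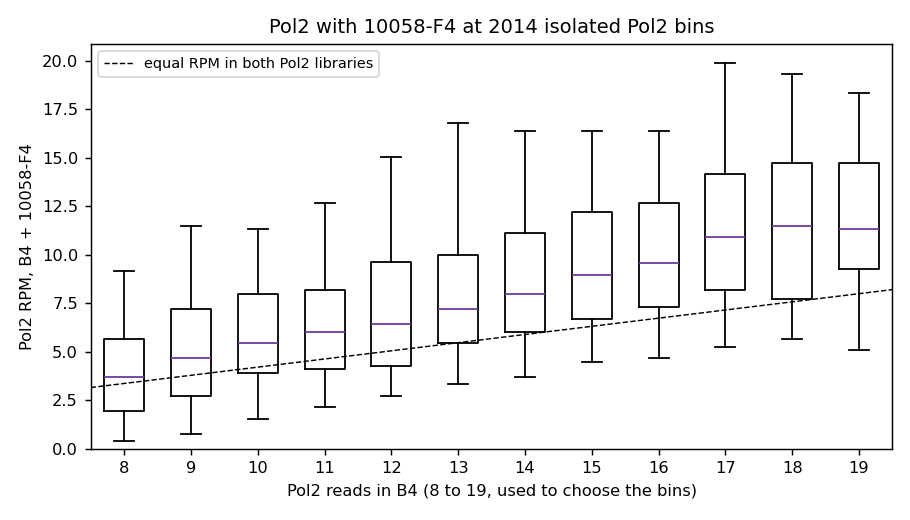
Pol2 RPM in B4 cells with 10058-F4 (vertical axis) for members grouped by their number of Pol2 reads in B4 (horizontal axis). Boxes are quartiles with the median, whiskers the 5th and 95th percentiles, and the dashed line equal RPM in both libraries. Each median lies above the line, and the highest single value was 42.9 RPM, beyond the whiskers.

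Single sites ranged widely with 10058-F4. The highest level was at chr15:79162501-79163000 (mm8), with 220 Pol2 reads (42.9 RPM) in B4 with 10058-F4 and 17 reads (7.15 RPM) in B4. IgG at this bin held 1 and 1 reads with 10058-F4 and 0, 1 and 1 in B4. The log2 fold change of Pol2 over IgG was 6.51 ± 1.02 SE (limma). The bin was named for this Pol2 level and passed the read minimum only through it, so no p-value is given. Myc there was low, with 2 reads with 10058-F4, 2 and 4 in B4, 4 in B0 and 1 in T4. Its next Pol2 site was 7 kb away.

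The next highest were chr12:100190501-100191000 with 157 Pol2 reads, chr9:53299001-53299500 with 146, chr5:25039501-25040000 with 132 and chr13:111515501-111516000 with 126, all with 10058-F4. In B4 these 4 bins held 17, 17, 14 and 16 reads. At the site on chromosome 9 Myc had 7 reads with 10058-F4, 15 and 8 in B4, 22 in B0 and 4 in T4, against IgG of 3 and 5 with 10058-F4, 0, 1 and 5 in B4, 8 in B0 and 3 in T4. The lowest p over IgG among the members was at chr5:67539501-67540000, where Pol2 had 81 reads with 10058-F4 and 17 in B4, IgG had 0 in both 10058-F4 libraries, and the adjusted p was 1.4e-07 (limma). Of the 10 members with the lowest p, all had 58 or more Pol2 reads with 10058-F4 and at most 1 read in each IgG library of the same cells. The ranking rests on these same Pol2 reads, and some of the 10 passed the read minimum only through them.

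At the other end, 5 members had 0 Pol2 reads with 10058-F4: chr13:21455001-21455500, chr4:46395501-46396000, chr5:73462501-73463000, chr7:37272001-37272500 and chr15:27064001-27064500. They had 9, 8, 8, 8 and 8 reads in B4, and all 5 fell under the minimum for the fit. Altogether 31 members (1.54%) had 0 to 2 Pol2 reads in the deeper 10058-F4 library, against 450 crowded bins (2.32%). None of the 31 had more than 10 reads in B4, and in 26 of them the minus-strand reads lay after the plus-strand reads, so they were laid out like other members in B4. Myc at these 31 bins was 1.27 to 1.83 times the flanks over the 5 Myc libraries other than T14, and IgG was 1.014 to 1.82 times the flanks over the 7 IgG libraries other than T14.

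Myc reads were above their flanks at the isolated sites in every Myc library, least in the one labelled T14 Myc (1.49 times), but so were IgG reads in every IgG library. With 10058-F4, Myc averaged 0.789 RPM per member and 3.47 times the flanks (3.37 to 3.58). In B4 it averaged 1.09 and 0.834 RPM, or 4.17 (4.03 to 4.30) and 4.04 times (3.92 to 4.17) the flanks, a mean of 4.10 ± 0.09 (SD, n = 2). In B0 it averaged 0.893 RPM and 3.37 times the flanks (3.31 to 3.43), and in T4 0.878 RPM and 3.37 times (3.29 to 3.45).

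IgG over its flanks was 2.89 and 2.44 with 10058-F4, 2.93 in B0 and 2.38 in T4. In B4, where IgG entered the rule, it was 1.82, 3.51 and 2.05. Both B4 Myc libraries lay above all 7 IgG libraries outside T14, while Myc with 10058-F4, in B0 and in T4 lay above the IgG of their own state but not above B4 IgG replicate 2. The order from high to low was B4 Myc, then Myc with 10058-F4, then B0 and T4. The intervals of the 2 B4 libraries overlapped each other, that of Myc with 10058-F4 overlapped both B0 and T4, and neither of the last 3 reached B4. With 1 library in each of those states, the difference between states was not tested on this ratio.

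**Figure D3:**
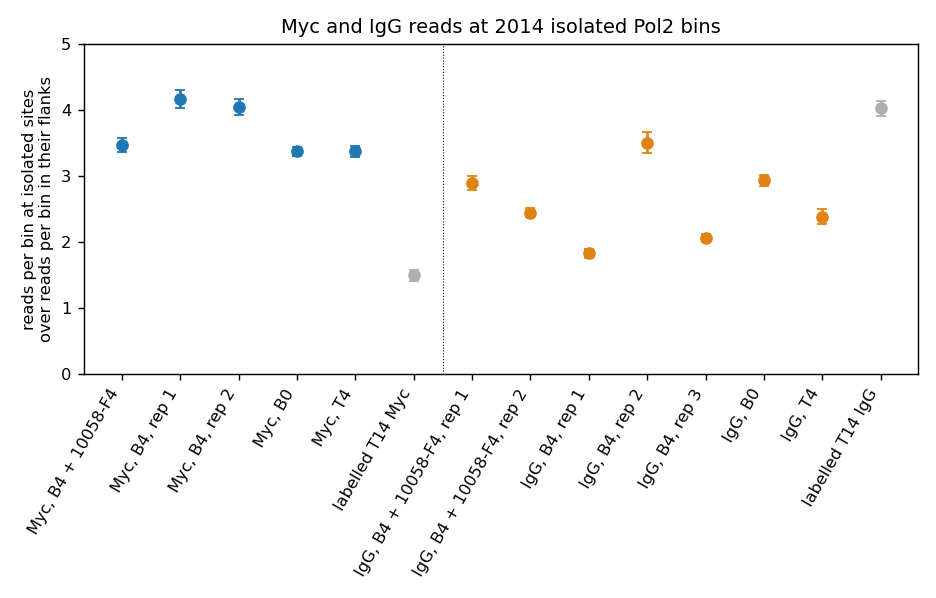
Reads per bin at the 2014 isolated bins over reads per bin in their flanks (vertical axis) for the Myc libraries on the left of the dotted line and the IgG libraries on the right. Points are libraries and bars exact 95% intervals for counting. B4 Myc (4.17 and 4.04) is above every IgG library, though labelled T14 IgG (4.03) is within its intervals, and B4 IgG replicate 2 (3.51) is level with Myc with 10058-F4 (3.47).

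Against the IgG of its own state, Myc was 1.29-fold (1.24 to 1.33) with 10058-F4, 1.21-fold (1.18 to 1.25) in B0 and 1.58-fold (1.505 to 1.66) in T4, by summed RPM. B4 Myc was set against the 10058-F4 IgG as well, since the rule kept bins low in B4 IgG. On that footing it was 1.79-fold (1.72 to 1.85) and 1.36-fold (1.32 to 1.41), against 2.11 and 1.61 over B4 IgG. The choice of a single control moved it further: over the flanks, B4 Myc exceeded B4 IgG replicates 1, 2 and 3 by 2.28, 1.19 and 2.03 times for replicate 1, and by 2.22, 1.15 and 1.97 times for replicate 2. Replicate 2 is the IgG library marked wt and the shallowest of all, at 1278471 reads.

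The crowded bins gave values close to these in some states. Myc over IgG with 10058-F4 was 1.29 at isolated, 1.15 at crowded and 1.30 at strong bins. B4 Myc over 10058-F4 IgG was 1.79 and 1.36 at isolated, 1.77 and 1.15 at crowded, and 2.41 and 1.65 at strong bins. B0 Myc over IgG was nearly flat, at 1.21, 1.23 and 1.21, and T4 Myc likewise at 1.58, 1.58 and 1.60. Thus both B4 Myc libraries were higher over IgG at strong bins than at isolated or crowded bins, while B0 and T4 showed almost no gain. Myc with 10058-F4 was also higher at strong bins (1.29 to 1.32) than at crowded bins (1.14 to 1.17), but not than at isolated bins. Here B4 Myc was set against IgG of cells with 10058-F4, and the other states against their own IgG. None of these gains was tested against replicates.

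In the same limma fit, which left out T14, no member was called for Myc over IgG with 10058-F4, in B4, in B0 or in T4; in B4, 10 were without IgG replicate 2 and 2 at a minimum of 52 reads. B4 Myc was above IgG in 13 of 142141 bins (0.00915%) and below in 0, and 0 of 1925 members tested were called. This count varied with the libraries used: without B4 IgG replicate 2, 278 bins and 10 members were called higher, against 0 bins without Myc replicate 1, 1 without IgG replicate 1, 3 without IgG replicate 3 and 0 within the 45-base libraries. At an unadjusted p below 0.05, 3668 bins were higher and 2998 lower, among them 113 members higher (5.87%, against 2.58% of all bins) and 10 lower. B4 IgG was low at the members by choice, so nothing is read from that count. With 10058-F4 IgG as the control, 87 members were higher (4.52%, against 2.33% of all bins) and 22 lower. There were 0 calls in either direction with 10058-F4, in B0 and in T4. At an unadjusted p below 0.05, 22, 40 and 30 members were higher in these states (1.14%, 2.08% and 1.56%). Over all bins the shares higher were 0.900%, 1.65% and 0.677%. Members lower numbered 15, 3 and 12 (0.779%, 0.156% and 0.623%), against 1.84%, 0.348% and 2.06% of all bins. Limma-trend gave 9 calls in B4, 1 in T4 and 0 in the other states.

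The median log2 fold change of the members tested was 0.36 with 10058-F4 (0.14 over all bins tested), 0.56 in B4 (-0.00) and 0.24 in B0 (0.04). Leaving out 1 library moved it to between 0.09 and 0.62 with 10058-F4, and to between 0.35 (without B4 IgG replicate 3) and 0.92 (without B4 IgG replicate 2) in B4. In T4 it was 0.27 for members and for all bins, which is the value of a bin with 1 Myc read and 0 IgG reads; T4 IgG was at 0 in 46.9% of the members tested. The differences between states also gave 0 calls over all bins by both limma fits. For 10058-F4 minus B4 the members' median was -0.25 (0.09 over all bins), with 12 members higher and 34 lower at an unadjusted p below 0.05. For B4 minus B0 it was 0.32 (-0.13), with 17 higher and 15 lower, and for T4 minus B4 it was -0.14 (0.16), with 17 higher and 16 lower. In the same order, the shares of members higher were 0.623%, 0.883% and 0.883%, against 1.24%, 0.510% and 0.824% of all bins. The shares lower were 1.77%, 0.779% and 0.831%, against 1.46%, 1.59% and 1.17% of all bins. These contrasts share the B4 libraries, and B4 IgG was used by the rule. With 10058-F4 IgG in its place the medians were -0.12, 0.27 and -0.07. Leaving out 1 library gave medians from -0.60 (without B4 IgG replicate 2) to 0.0036 (without B4 IgG replicate 3) for 10058-F4 minus B4, and from 0.69 to 0.09 for B4 minus B0 without the same libraries. For T4 minus B4 the sign was not stable: the median was -0.48 without B4 IgG replicate 2, 0.11 without B4 IgG replicate 3, 0.03 without B4 Myc replicate 1 and 0.15 by limma-trend.

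As a count per bin, both B4 Myc libraries were above all 7 IgG libraries outside T14 in 146 of 1925 members (7.58%), against 3.68% of all 142141 bins tested. The share was 6.23% of crowded and 19.99% of strong bins. Of the 7 IgG libraries, 3 are the B4 IgG that the rule used, so nothing is read from the members' share, and the wider set of bins includes many without Pol2.

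Myc at single members rested on few reads. The member with most Myc in both B4 libraries was chr6:56853001-56853500, with 11 reads with 10058-F4, 12 and 19 (5.60 and 6.13 RPM) in B4, 13 in B0 and 13 in T4. IgG there held 2 and 2 reads with 10058-F4, 0, 1 and 1 in B4, 5 in B0 and 0 in T4. Every Myc library outside T14 was above every IgG library at this bin in reads. Its log2 fold change in B4 was 3.91 ± 0.95 (SE), with an adjusted p of 0.145 (limma), and of 7.4e-04 (limma) without B4 IgG replicate 2. The bin was picked for these same Myc reads and the rule kept B4 IgG low, so nothing is read from either p-value. Pol2 there was 74 reads with 10058-F4 and 12 in B4, and the next site was 125.5 kb away.

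At chr12:100190501-100191000, also among the highest for Pol2 with 10058-F4, Myc had 7 reads with 10058-F4, 8 and 13 in B4, 10 in B0 and 2 in T4. IgG had 3 and 6 with 10058-F4, 1, 0 and 4 in B4, 2 in B0 and 2 in T4. B4 Myc exceeded its controls here, while T4 Myc equalled its control in reads. The bin at chr7:144363001-144363500 had 1 Myc read with 10058-F4 and 7 and 12 in B4, against IgG of 4 and 1 with 10058-F4 and 3, 0 and 2 in B4. Its Pol2 had 100 reads with 10058-F4 and 10 in B4.

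The other 3 of the 6 members with most B4 Myc were chr4:117048001-117048500, chr19:4510001-4510500 and chr2:22662501-22663000. They had 6, 1 and 1 Myc reads with 10058-F4, in a library deeper than either B4 Myc library, against 7, 7 and 7 in B4 replicate 1 and 13, 13 and 10 in B4 replicate 2. Pol2 with 10058-F4 had 56, 78 and 17 reads at these 3, against 15, 15 and 11 in B4. All 6 members were picked for most B4 Myc, so fewer Myc reads in another library can follow from the choice. Nothing is read from those lower counts. Adjusted p for B4 Myc over IgG was 0.927 at the chromosome 12 bin and 0.994 at the other 4 (limma). Among the 10 members with the lowest Pol2 p, chr8:73835001-73835500 had the lowest p for B4 Myc, at an adjusted p of 0.641 (limma). It held 1 Myc read with 10058-F4 and 5 and 8 in B4, against B4 IgG of 0, 0 and 1, and 14 Myc reads in T4 against 0 IgG reads. It was singled out after its values were seen.

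Myc and IgG were both higher at members with more Pol2. When members were split by Pol2 RPM with 10058-F4 into 5 groups of nearly equal number, mean Pol2 RPM ran from 2.11 in quintile 1 to 14.5 in quintile 5. Myc over these 5 groups ran from 0.524 to 1.05 RPM with 10058-F4, from 0.722 to 1.38 and from 0.482 to 1.22 in B4, from 0.653 to 1.14 in B0 and from 0.579 to 1.12 in T4. IgG ran from 0.605 to 0.803 and from 0.427 to 0.715 with 10058-F4, from 0.405 to 0.495, from 0.708 to 1.07 and from 0.346 to 0.546 in B4, and from 0.558 to 0.916 in B0.

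Myc over IgG was also higher along this order in B4, with 10058-F4 and in T4. B4 Myc over 10058-F4 IgG was 1.51 (1.37 to 1.66) in quintile 1 and 1.86 (1.74 to 2.002) in quintile 5 for replicate 1, and 1.007 (0.913 to 1.11) and 1.64 (1.53 to 1.75) for replicate 2. Myc with 10058-F4 over its IgG was 1.09 (0.998 to 1.20) and 1.41 (1.32 to 1.51) in the same groups, and T4 Myc 1.26 (1.11 to 1.43) and 1.83 (1.65 to 2.03). In B0 the ratio was 1.17 (1.08 to 1.27) and 1.24 (1.17 to 1.32), with overlapping intervals. The groups share the Pol2 library that ordered them, and base composition and mappability of the bins were not available as covariates.

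**Figure D4:**
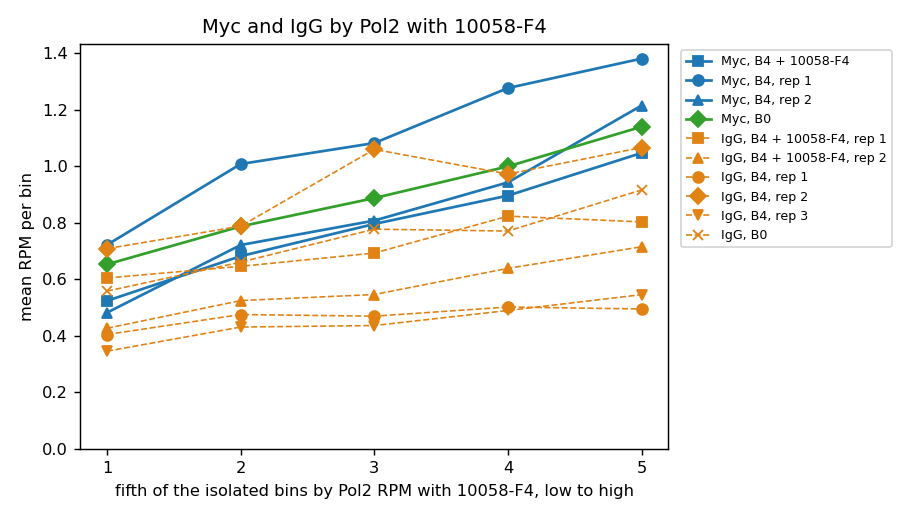
Mean RPM per bin (vertical axis) of B cell Myc libraries (solid) and IgG libraries (dashed) in 5 groups of isolated bins ordered by Pol2 RPM with 10058-F4 (horizontal axis). All lines end higher than they begin; B4 Myc replicate 1 ends at 1.38 RPM and B4 IgG replicate 1 at 0.495 RPM.

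Members with company in the adjacent bin differed from those that stood alone. Beside a bin of 8 to 19 reads (663 members), Pol2 with 10058-F4 averaged 8.50 RPM, against 6.75 RPM at the 1124 lone members. B4 Myc over 10058-F4 IgG was 1.999 (1.88 to 2.12) and 1.59 (1.5005 to 1.68) at the paired members, against 1.61 (1.54 to 1.69) and 1.21 (1.15 to 1.27) at the lone members. Over the IgG of its own state, Myc with 10058-F4 was 1.37 (1.29 to 1.45) at the paired and 1.23 (1.18 to 1.29) at the lone members. In T4 these ratios were 1.73 (1.59 to 1.88) and 1.47 (1.37 to 1.57). In B0 they were 1.22 (1.16 to 1.29) and 1.21 (1.17 to 1.26). The paired members also had more B4 Pol2, at 5.41 against 4.85 RPM, so size and company go together.

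At equal B4 Pol2 the isolated bins had somewhat more of every ChIP signal than crowded bins. At 16 to 19 B4 reads, Pol2 with 10058-F4 was 11.2 RPM in 406 isolated bins and 10.2 RPM in 3722 crowded bins. Myc was 0.982 and 0.786 RPM with 10058-F4, and 1.07 and 0.921 RPM in B0. B4 Myc was 1.40 against 1.33 RPM in replicate 1 and 1.10 against 0.902 RPM in replicate 2, in isolated and crowded bins. IgG was also higher at the isolated bins in the 10058-F4, B0 and T4 libraries, for example 0.877 against 0.746 RPM in B0, so the gap was not particular to the antibodies.

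The rule was also run in each other library on reads as deposited, thinned to about the depth of B4 Pol2 where deeper. It found 103 bins in Myc with 10058-F4, 720 and 348 in B4 Myc, 66 in B0 Myc and 177 in T4 Myc, against 14 to 123 in the IgG libraries outside T14. Few lay at the Pol2 members: 34 and 24 members (1.69% and 1.19%) had an isolated B4 Myc bin within 1 bin, 6 had one in Myc with 10058-F4, 0 had one in B0 Myc and 21 had one in T4 Myc. Most isolated Myc bins by this rule were therefore elsewhere, at 4.03% and 6.32% shared in B4 and 10.7% in T4. For IgG the shared part was 7.32% and 4.76% with 10058-F4, 5.36% in B0 and 18.2% in T4. In B4 IgG it was 1.85%, 7.41% and 0%. These IgG shares rest on few bins, such as 6 of 33 in T4 and 3 of 56 in B0. Isolated IgG bins lay within 1 bin of 10 and 2 members with 10058-F4. The number was 3 in B0, 6 in T4 and 2, 4 and 0 in B4. The 2014 members are a small part of the 4924887 bins, and the overlap to be had by position alone was not computed. Overlap was thus also seen in IgG, outside T14 at fewer members than in B4 or T4 Myc.

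Isolation reached well past the 5 kb that the rule required. The next Pol2 site, a bin of 8 or more reads past the limit over IgG, was a median of 37 kb away (34.5 to 39.0, interquartile range 18 to 79.5, range 5.5 to 3414 kb). Crowded bins had theirs at a median of 2.5 kb and strong bins at 3.5 kb. Within 5 kb, 61.7% of crowded and 55.7% of strong bins had a next site, which the rule excludes for members. The gap between these medians is therefore in part built in. The next strong bin was a median of 78.5 kb from a member, and the next member that was not adjacent 249.5 kb. Within 20 kb, 586 members (29.1%) had a next site, and 384 (19.1%) had none within 100 kb. The rule sets the lower end of these distances, so no test of them is given.

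**Figure D5:**
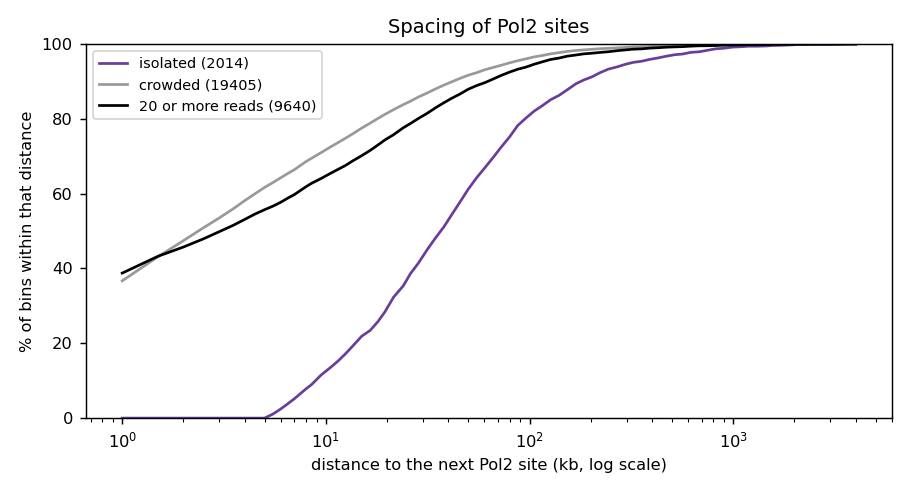
Percentage of bins (vertical axis) whose next Pol2 site lies within a given distance in kb (horizontal axis, log scale) for isolated, crowded and strong bins. The curve of the isolated bins starts at 5.5 kb by construction and passes its middle at 37 kb, against 2.5 and 3.5 kb for the others.

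The farthest member pair, chr8:56028001-56028500 and chr8:56028501-56029000, had its next site 3414 kb away. These adjacent bins had 49 and 69 Pol2 reads with 10058-F4 and 17 and 17 in B4. Myc there was 0 and 3 reads with 10058-F4, 7 and 3 in B4 replicate 1, 2 and 9 in B4 replicate 2, and 11 and 8 in T4. Next came chr4:66313501-66314000 at 3265 kb, chr3:113621501-113622000 at 2053 kb and chr17:93072001-93072500 at 1982 kb, with 38, 62 and 58 Pol2 reads with 10058-F4 and 13, 17 and 19 in B4. At these 5 bins Pol2 was above IgG with 10058-F4 at an adjusted p of at most 0.00501 (limma).

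Distance was only weakly tied to RPM and to Myc over IgG, but more to Pol2 over its flanks. Members were put in 4 groups, from the nearest to a site (5.5 to 18 kb) to the farthest (80 to 3414 kb). Pol2 with 10058-F4 averaged 6.83, 7.37, 7.845 and 7.68 RPM, and 25.1, 31.1, 35.1 and 40.1 times its flanks. From nearest to farthest, B0 Myc over flanks went from 2.83 to 3.94 and B0 IgG from 2.55 to 3.47. IgG with 10058-F4 went from 2.55 to 3.78 and from 2.23 to 2.75, T4 IgG from 2.35 to 2.54 and B4 IgG replicate 2 from 2.84 to 3.84. B4 IgG replicates 1 and 3 went the other way, from 1.84 to 1.71 and from 2.20 to 1.94. B4 Myc over 10058-F4 IgG was 1.83, 1.91, 1.83 and 1.61 in replicate 1 and 1.30, 1.32, 1.49 and 1.33 in replicate 2. B0 Myc over IgG was 1.21, 1.25, 1.21 and 1.19, and T4 Myc 1.61, 1.63, 1.67 and 1.43. The farthest group thus had the lowest Myc over IgG in each of these libraries except B4 replicate 2, with IgG of 0.835 RPM in replicate 1 with 10058-F4, against 0.657 to 0.686 RPM in the nearer groups.

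Isolated sites were spread more evenly over the genome than Pol2 sites as a whole. Members numbered 5.57 per 10 Mb on chromosome 14 to 11.3 on chromosome 11, while all Pol2 sites numbered 78.3 to 259 per 10 Mb on the same chromosomes. The isolated share of moderate bins was lowest on chromosome 19 (6.35%, 4.82 to 8.19), 11 (6.55%, 5.53 to 7.695) and 17 (6.61%, 5.29 to 8.14), where sites were densest. It was highest on chromosome 13 (14.6%, 12.1 to 17.3). The neighbour limit drops bins where Pol2 reads are dense. The more even spread and the low shares on dense chromosomes thus follow in part from the rule.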

How the data were processed

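The 16 ChIP-seq libraries were used as lists of aligned reads (chromosome, positions, length, strand) in the form the authors deposited them. The files hold positions rather than counts, and other quantities were computed from them. Per the submitters' processing notes, CASAVA 1.0, Bowtie 0.12.7 and mm8 were used; no settings are given. The files do not say if positions start at 0 or 1, so a coordinate can be off by 1 base. The rule was applied to reads as deposited, in every library where it was run; other values use 1 read per 5′ end and strand, which removed 5.29% of B4 Myc replicate 1 and at most 0.0808% elsewhere. Reads were scaled to RPM.

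Ratios over flanks divide reads per member by reads per bin in the 18 bins 2 to 10 away. Intervals are exact binomial or Poisson. Fits used limma 3.58.1 with voom in R 4.3.3 on 13 libraries with 1 mean per group (threshold 0.05), after a check on simulated data. The labels name no separate animals or cultures, so a p-value here measures spread between libraries only, which may be technical. The main fit had 568564 degrees of freedom, pooled over all bins tested. Its spread is thus shared by all bins after the voom weights and is not a bin's own. It comes from the replicated groups only, B4 Myc, B4 IgG and IgG with 10058-F4. Named members were the 6 with most B4 Myc (the lower of the 2 RPM), the 5 highest and 5 lowest in Pol2 with 10058-F4, the 5 farthest from a site and the 10 called members with the lowest p. Members, lists and tests were chosen with earlier results of these data known. No paired fit came from shared animals; a block on the title mark rpt was an alternative. Python 3 scripts with numpy and scipy computed the sums.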

Additional observations from a re-analysis of the deposited data

Results flagged for a closer look

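At T14, the library labelled Myc lay at 0.325 times the library labelled IgG over the isolated sites (0.306 to 0.344), while T4 Myc lay at 1.58 times T4 IgG. The T14 and T4 pairs thus differed in direction. The difference was not tested, since each state has 1 library of each kind. The labelled T14 Myc library was at 1.49 times its flanks and the labelled T14 IgG library at 4.03 times, and the full rule found 22 isolated bins in labelled T14 Myc and 450 in labelled T14 IgG. The file names give the opposite antibodies to the titles for these 2 libraries.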

How the results depend on the processing

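Calls for B4 Myc moved with the libraries and the filter: 13 bins became 39 with a replicate block on the title mark rpt, 3 with 10058-F4 IgG as control, 0 with 45-base reads alone, 3 at 13 or more reads summed and 125 at 52 or more, with 2 members called at 52. Leaving out 1 library gave 0 to 278 bins and 0 to 10 members; the 278 bins and 10 members came without B4 IgG replicate 2, and without B4 Myc replicate 1 there were 0 bins. Limma-trend gave 1 bin in T4. At chr6:56853001-56853500 B4 Myc passed the threshold without B4 IgG replicate 2 (log2 4.90, adjusted p 7.4e-04, limma) and at 52 or more reads (log2 4.01, adjusted p 0.014, limma). That bin was picked for its B4 Myc reads, so nothing is read from these p-values. For Pol2 with 10058-F4, bins called higher numbered 55447 with background scaling, 14802 at 13 or more reads (534 members) and 20670 at 1 kb; leaving out an IgG library gave 12940 to 18685 bins and 489 to 590 members (fewer samples). With the block, 1776 Pol2 bins were called lower, against 1155 without it; apart from this and the 39 bins above, it changed no count of calls by over 1.5 times. No pairing by animal is stated.

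Ratios over flanks kept B4 Myc above the 7 IgG libraries and Myc with 10058-F4 in all 9 alternatives. In the order Pol2 with 10058-F4, Myc with 10058-F4, B4, B0 and T4, labelled T14 Myc and labelled T14 IgG, they were 20.3, 2.57, 3.001, 2.53, 2.66, 1.35 and 2.98 in 1.5 kb windows and 47.2, 4.29, 4.47, 4.10, 3.74, 1.71 and 4.90 for neighbours of at most 1 read. For lone members, an alternative chosen after seeing the data, they were 29.9, 3.27, 3.77, 3.18, 3.07, 1.59 and 3.48. At 12 to 19 Pol2 reads they were 42.5, 4.16, 4.90, 3.88, 3.97 and, for labelled T14 IgG, 5.01. With flanks 6 to 10 bins away, Pol2 was 39.1, Myc in B4, B0 and T4 4.27, 3.46 and 3.62, and labelled T14 IgG 4.25; with reads moved 75 bases Pol2 was 32.8.

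The number of members was 392 with neighbours of at most 1 read, 4072 with at most 3, 1775 to 2033 without 1 B4 IgG library, and 1985 with reads moved 75 bases, of which 1461 were the same bins. The median distance was 78.5 kb to sites of 20 or more reads and 24.0 kb to sites of 5 or more. The Pol2 ratio between states was 1.90 scaled by quiet bins, also added after seeing the data. B4 Myc reads per member (2.34 and 2.58) limit what single bins can show.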
